A study of Homo sapiens with 12 samples.

Results

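SLITRK5, SLITRK6, LINGO1, LINGO2, LRRTM2, LRRC4, LRRC4C and FLRT3 encode neuronal cell-surface proteins with leucine-rich repeats, and NTNG1 and NTNG2 encode the netrin-G proteins. These 10 genes were measured in SH-SY5Y, a human neuroblastoma cell line, after knockdown of MATR3 (Matrin3), an RNA- and DNA-binding protein of the nuclear matrix. The genes were found by their symbols in the platform annotation, as 10 of 67528 gene-level transcript clusters and 233 of 913055 exon-level probe sets. Each gene had 1 cluster. The symbols were selected on family and with the gene-level log2 differences between the groups already known, so every call, rank and exon-level difference of that contrast is a description.

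Cells grown in DMEM/F-12 medium with 15% serum were electroporated either with siRNA against MATR3 or with a negative control siRNA. Total RNA was taken after 48 h, and 100 ng of it was labelled for Affymetrix Human Transcriptome Array 2.0 hybridisation. There were 3 samples per group, each summarised on the log2 scale once per gene and once per exon or exon junction. All values below are such log2 signals, on which a difference of 1 is a 2-fold difference.

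Leucine-rich-repeat adhesion proteins sit in the neuronal membrane and bind partners on the facing cell, and many of them help to form synapses. The SLITRK proteins bind receptor-type protein tyrosine phosphatases, LRRTM2 binds neurexins, and FLRT3 binds latrophilins and UNC5 receptors. LRRC4C (NGL-1) and LRRC4 (NGL-2) bind netrin-G1 and netrin-G2, which are held on the axon surface by a lipid anchor and do not diffuse as classical netrins do.

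The knockdown was visible in every sample: the cluster annotated with MATR3 and SNHG4 was 1.14 ± 0.09 (SD, n = 3 pairs) lower after MATR3 siRNA, at 45.4% of the control. Both replicate 1 arrays differed from the remaining 4: over all clusters their mutual correlation was r = 0.9955, while it was 0.9809 to 0.9859 to arrays of the other replicates. Array medians ran from 4.80 to 5.16. Each array's highest signal among 23 background probe sets averaged 7.17, and values under that level are called below background here. That highest signal ran from 6.48 to 8.75, and the median of the 23 sets from 3.49 to 3.81. A value below background can thus lie above most background probe sets and is not read as absence of the RNA. Of 7 measured sympathoadrenal markers, the identity of this line, 6 were above that level. TH, the first enzyme of catecholamine synthesis, was not. With the array-set block DBH fell by 0.84, at adjusted p = 0.0199 in limma (1 with no block, 0.0620 with the replicate block). ISL1 was 0.54 higher with overlapping groups, at 0.0385 with the array-set block, 1 with no block, 0.0856 with the replicate block and 0.0955 with the array-set block after median centring. Of 7 glial or mesenchymal markers, TWIST1 alone was above background in these arrays and 0 were called, nor was any of the 3 fitted at an unadjusted p under 0.05 in limma, with differences from -0.10 to 0.15.

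After MATR3 siRNA, SLITRK6, LINGO2 and NTNG1 were higher, and the other 7 genes differed by 0.20 or less on the log2 scale. The limma fit with no block, over 15209 clusters with 1 symbol and a mean at or above the median of all clusters, called 0 of the 9 members it held, against a background of 0% of clusters. At an unadjusted p under 0.05 were 3 members and 96 clusters in all. With the replicate number as a block, 1 of the 9 members was called higher, LINGO2, against 0.0526% of all clusters called, 0.0197% higher and 0.0329% lower. In 4 of the 10 genes every MATR3 siRNA sample was above every control, and in 0 below, against 1.58% of fitted clusters higher and 0.658% lower with no overlap. With a block for the array set (replicate 1 of both groups against replicates 2 and 3), 3 of the 9 members were called higher and 0 lower, against 3.48% of clusters called, 2.08% higher and 1.41% lower. The labels name no array set: this block was taken from the likeness of these same arrays, so its calls depend on that choice. The same block over all 33782 clusters at or above the median, with and without a symbol, ended these calls: 0 members and 1 cluster passed, and SLITRK6, LINGO2 and NTNG1 each had adjusted p = 0.106. Since the list was chosen with this contrast known, nothing is read from those shares. In these bulk samples more RNA per cell and more cells that carry the RNA cannot be told apart.

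**Figure D1:**
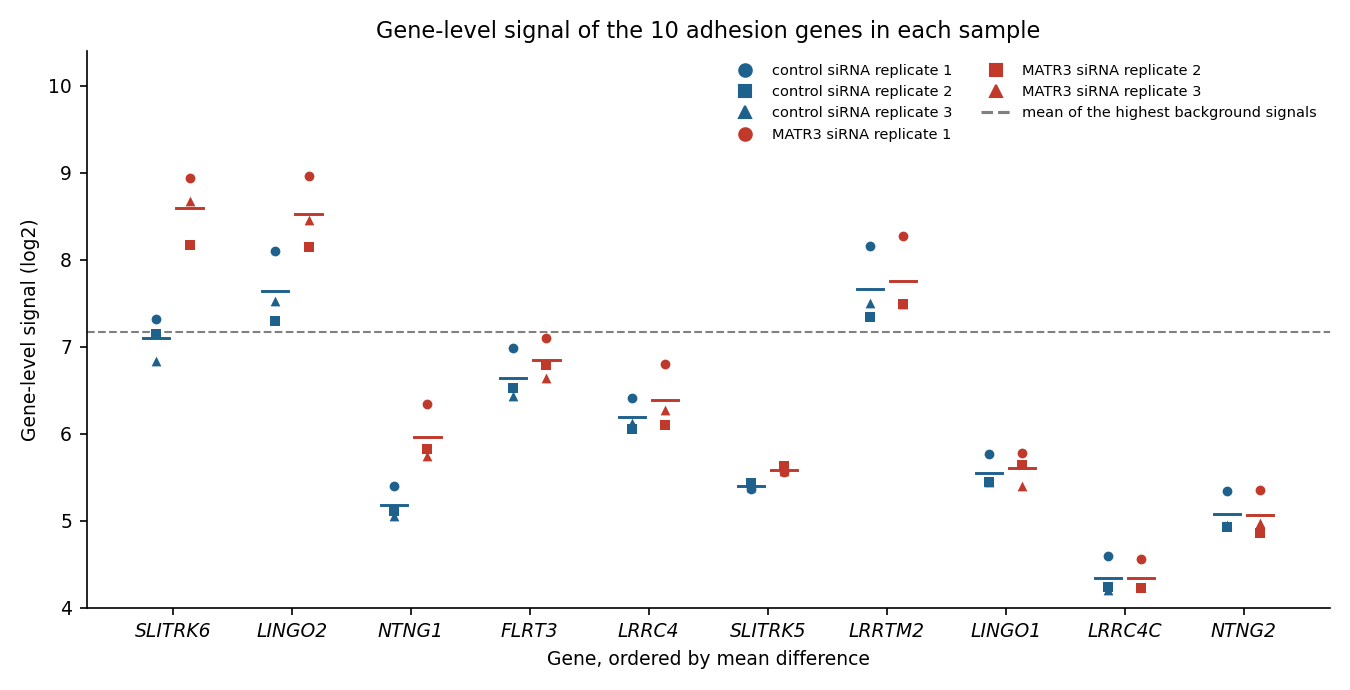
Gene-level log2 signal (vertical axis) of the 10 genes (horizontal axis, ordered by mean difference) in each control siRNA and MATR3 siRNA sample, with marker shapes for replicate numbers, bars for group means and a dashed line at 7.17, the mean of the highest background signals. SLITRK6, LINGO2, NTNG1 and SLITRK5 show groups that do not overlap, and NTNG1 and SLITRK5 lie below the dashed line in all 6 samples.

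SLITRK6, a SLITRK family protein needed for the innervation of the inner ear in mice, had the highest difference of all 15209 fitted clusters. Replicates 1, 2 and 3 gave gene-level signals of 8.94, 8.17 and 8.67 after MATR3 siRNA, against 7.32, 7.15 and 6.84 in the controls. Every MATR3 siRNA sample was above every control sample. The means were 8.59 ± 0.39 and 7.10 ± 0.24 (SD, n = 3), and the control mean lies just under the background level of 7.17. This is a mean pair difference of 1.49 ± 0.42 (SD, n = 3 pairs), a 2.81-fold higher signal, with 2.03-fold to 3.56-fold in single pairs. Adjusted p in limma was 1 with no block, 0.0620 with the replicate block and 0.0199 with the array-set block.

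At exon level all 9 SLITRK6 probe sets were higher after MATR3 siRNA, by 0.52 to 2.24. Of these, 7 were at least 2-fold higher, against 1.72% of all probe sets of the arrays. In 6 of the 7 the groups did not overlap, against 0.865% of all probe sets 2-fold higher with no overlap. The junction probe set JUC13005157.hg.1 had the greatest difference, with 12.21, 12.31 and 12.09 after MATR3 siRNA against 10.13, 10.22 and 9.55 in the controls. Its groups were well apart, with a mean difference of 2.24 ± 0.26 (SD, n = 3 pairs), or 4.71-fold. The exon probe set PSR13008804.hg.1 gave 10.96, 10.63 and 10.99 against 8.73, 8.88 and 8.80, a 4.16-fold difference with no overlap. The lowest difference among the probe sets at or above the median was at PSR13008799.hg.1, with 8.48, 5.62 and 7.49 against 7.05, 6.37 and 6.59. There the groups overlapped, and MATR3 siRNA replicate 2 was the lowest of the 6 samples.

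SLITRK5, a relative of SLITRK6 that acts at synapses and in BDNF receptor trafficking in mice, gave 5.56, 5.63 and 5.57 after MATR3 siRNA. The control signals were 5.37, 5.43 and 5.39. The groups did not overlap, yet the difference was small, 0.19 ± 0.01 (SD, n = 3 pairs), and both groups were below background. Adjusted p was 1 with no block in limma, 0.166 with the replicate block and 0.0952 with the array-set block. The difference was 0.13 after quantile normalization and 0.11 after median centring. There adjusted p in limma with the array-set block was 0.285 and 0.572. The 10 SLITRK5 probe sets ranged from -0.73 to 0.85, and 0 of them differed 2-fold. Of the 10, 1 was lower with no overlap, against 2.61% of all probe sets. The highest of these, PSR13003345.hg.1, had 8.18, 8.27 and 8.11 against 7.08, 8.11 and 6.83, and its groups met at 8.11. The lowest, JUC13002086.hg.1, had 7.13, 7.07 and 7.63 against 8.28, 7.22 and 8.51, lower in each pair but with overlapping groups.

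LINGO2, a leucine-rich-repeat and immunoglobulin-domain protein of the LINGO family, gave 8.96, 8.15 and 8.46 after MATR3 siRNA, against 8.10, 7.29 and 7.52 in the controls. The lowest MATR3 siRNA sample was just above the highest control sample. In both groups replicate 1 was the highest, and within pairs the difference was nearly constant, at 0.86, 0.86 and 0.94. The group means were 8.52 ± 0.41 and 7.64 ± 0.42 (SD, n = 3), a difference of 0.89 ± 0.05 (SD, n = 3 pairs) or 1.85-fold. Adjusted p in limma was 1 with no block, 0.0406 with the replicate block and 0.0224 with the array-set block.

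Of 27 LINGO2 probe sets, 25 were higher after MATR3 siRNA, among them all 18 at or above the median signal of all probe sets. The other 2 were lower, 1 of them with groups that did not overlap, against 2.61% of all probe sets. A total of 6 were at least 2-fold higher, and in 4 of these the groups did not overlap, against 1.72% and 0.865% of all sets. The exon probe set with the greatest difference, PSR09013038.hg.1, had 11.64, 12.40 and 12.17 against 10.98, 9.97 and 10.30. All 3 MATR3 siRNA samples were above all 3 controls, with a difference of 1.65 ± 0.90 (SD, n = 3 pairs). PSR09013035.hg.1 gave 11.42, 11.68 and 12.23 against 10.25, 10.56 and 10.63, and its groups were also separate. The lowest difference among the 18 was 0.16 ± 1.92 (SD, n = 3 pairs) at the junction JUC09007093.hg.1, where the groups overlapped. Junction probe sets differed less than exon probe sets, with medians of 0.36 over 6 and 0.89 over 12 at or above the median signal, a difference that was not tested. The number of 2-fold sets rests on single arrays: it was 10 without MATR3 siRNA replicate 2 and also without MATR3 siRNA replicate 3, and 3 without control siRNA replicate 2.

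LINGO1, a part of the Nogo receptor complex that limits axon growth, was not called in any of the 3 fits. Its gene-level signals were 5.78, 5.64 and 5.40 after MATR3 siRNA against 5.77, 5.45 and 5.44, with overlapping groups, all below background. The difference was 0.05 ± 0.12 (SD, n = 3 pairs), with adjusted p = 0.708 in limma with the array-set block, and its sign turned with quantile normalization and with median centring. Of its 11 probe sets, 1 was above background, PSR15016495.hg.1, with 10.00, 9.69 and 9.41 against 9.93, 9.56 and 9.48. These 2 groups overlapped and differed by 0.04 ± 0.10 (SD, n = 3 pairs). The 11 LINGO1 probe sets differed by -0.51 to 0.38. Among those at or above the median, PSR15016493.hg.1 was the highest, at 0.38 ± 0.39, and JUC15008970.hg.1 the lowest, at -0.28 ± 0.70 (SD, n = 3 pairs), both with overlapping groups.

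NTNG1, which encodes netrin-G1, the axonal ligand of LRRC4C, had gene-level signals of 6.34, 5.82 and 5.74 after MATR3 siRNA, against 5.40, 5.11 and 5.05 in the controls. The groups did not overlap, although all 6 values were below background. The difference was 0.78 ± 0.14 (SD, n = 3 pairs), from means of 5.97 ± 0.33 and 5.19 ± 0.19 (SD, n = 3). Adjusted p in limma was 1 with no block, 0.0540 with the replicate block and 0.0199 with the array-set block. Leaving out any 1 sample, with the array-set block, ended the calls of SLITRK6, LINGO2 and NTNG1, except for SLITRK6 without MATR3 siRNA replicate 2, at adjusted p = 0.0463, and 0 to 21 clusters of any gene were then called. The differences stayed within 1.37 to 1.65 for SLITRK6, 0.79 to 0.97 for LINGO2 and 0.70 to 0.83 for NTNG1.

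The start regions of these 3 genes, called with the array-set block but not with no block, are shown because they are the members that were higher together. The letters are the 250 bases before the RefSeq gene start on GRCh38.p14, in the direction of the gene. NTNG1 is at chr1:107139838-107140087 on the plus strand, the most upstream of 3 starts listed for it, SLITRK6 at chr13:85799420-85799669 on the minus strand, and LINGO2 at chr9:28719306-28719555 on the minus strand. The other NTNG1 starts are not shown, and which of the 3 starts the higher NTNG1 signals came from was not tested. Capitals mark any match to the TATA box letters TATAA, the CCAAT box or the GC box letters GGGCGG on either strand.
NTNG1: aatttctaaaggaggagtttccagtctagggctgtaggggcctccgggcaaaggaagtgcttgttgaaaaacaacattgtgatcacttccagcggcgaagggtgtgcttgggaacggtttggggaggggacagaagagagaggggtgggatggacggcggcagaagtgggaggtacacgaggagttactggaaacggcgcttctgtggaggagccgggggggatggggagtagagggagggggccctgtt
SLITRK6: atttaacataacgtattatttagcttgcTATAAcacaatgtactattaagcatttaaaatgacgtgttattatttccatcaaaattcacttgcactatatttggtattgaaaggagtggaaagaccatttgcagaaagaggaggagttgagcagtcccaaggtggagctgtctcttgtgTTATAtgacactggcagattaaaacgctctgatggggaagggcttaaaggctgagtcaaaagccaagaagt
LINGO2: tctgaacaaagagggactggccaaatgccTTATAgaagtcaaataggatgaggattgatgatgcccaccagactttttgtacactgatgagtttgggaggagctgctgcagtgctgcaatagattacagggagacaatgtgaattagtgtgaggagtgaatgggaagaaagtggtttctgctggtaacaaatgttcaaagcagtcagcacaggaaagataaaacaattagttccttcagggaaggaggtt
The NTNG1 window had 58.0% GC and 10 CpG, the SLITRK6 window 37.6% and 3 CpG, and the LINGO2 window 43.2% and 0 CpG. The median over 35116 windows of the same length was 11 CpG. TATAA matched at 2 places in the SLITRK6 window, 71 and 222 bases before the start, at 1 place in the LINGO2 window, 221 bases before it, and not in the NTNG1 window. Of all windows, 18.9% held TATAA, 32% CCAAT and 42.6% GGGCGG on either strand, and neither CCAAT nor the GC box letters matched any of these 3 windows. CANNTG, which is not capitalised, was present 2 times each in SLITRK6 and LINGO2, not in NTNG1, and in 61.8% of all windows. The matches are letters only, and no binding was measured.

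The exon-level signals of NTNG1 were uneven. Of its 60 probe sets, 18 were at least 2-fold higher after MATR3 siRNA, 14 of them with groups that did not overlap, and 0 were 2-fold lower. Over all probe sets of the arrays, 1.72% were at least 2-fold higher and 0.865% were so with no overlap. Of the 12 NTNG1 sets with a control mean at or above the median of all probe sets, 4 were at least 2-fold higher, against 1.22% of all such sets. Above background were 17 NTNG1 probe sets in the MATR3 siRNA means and 5 in the control means.

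The junction probe set JUC01007675.hg.1 had 12.37, 12.80 and 12.54 after MATR3 siRNA, against 8.59, 7.15 and 8.30 in the controls. The nearest samples of the 2 groups were thus 12.37 and 8.59, and the difference of 4.56 ± 0.97 (SD, n = 3 pairs), or 23.5-fold, was the greatest of any member probe set. The junction JUC01007689.hg.1 gave 12.44, 11.99 and 11.70 against 9.66, 8.21 and 8.37, a 9.83-fold difference with no overlap. At the exon probe set PSR01014517.hg.1 the signals were 10.33, 10.57 and 10.51 against 6.62, 6.82 and 6.95. All 3 controls there were below background and all 3 MATR3 siRNA samples far above it, with a difference of 3.67 ± 0.10 (SD, n = 3 pairs). The exon probe set PSR01014518.hg.1 showed the same layout, at 9.39, 8.69 and 9.06 against 4.45, 5.31 and 4.61. PSR01014524.hg.1 had 9.41, 8.86 and 8.33 against 5.63, 5.70 and 4.67, again with every control below background. Where a control mean is below background, the size of the difference is not exact.

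Of the 5 NTNG1 probe sets with control means above background, JUC01007675.hg.1 and JUC01007689.hg.1 were 4.56 and 3.30 higher. The others, PSR01014512.hg.1, PSR01014514.hg.1 and JUC01007695.hg.1, had mean differences of 0.06, 0.17 and 0.26. The exon probe set PSR01014512.hg.1 had 9.27, 8.55 and 8.35 after MATR3 siRNA, against 8.66, 8.57 and 8.76 in the controls. Its groups overlapped, with a difference of 0.06 ± 0.51 (SD, n = 3 pairs). The junction JUC01007695.hg.1 gave 10.18, 9.50 and 8.90 against 10.46, 8.70 and 8.64, and its highest sample was a control. Among the 19 NTNG1 probe sets at or above the median signal, the lowest difference was -0.49 ± 2.16 (SD, n = 3 pairs) at JUC01007682.hg.1, with 7.09, 5.08 and 5.81 against 6.97, 7.97 and 4.50. These control samples spread over a wider range than the MATR3 siRNA samples.

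**Figure D2:**
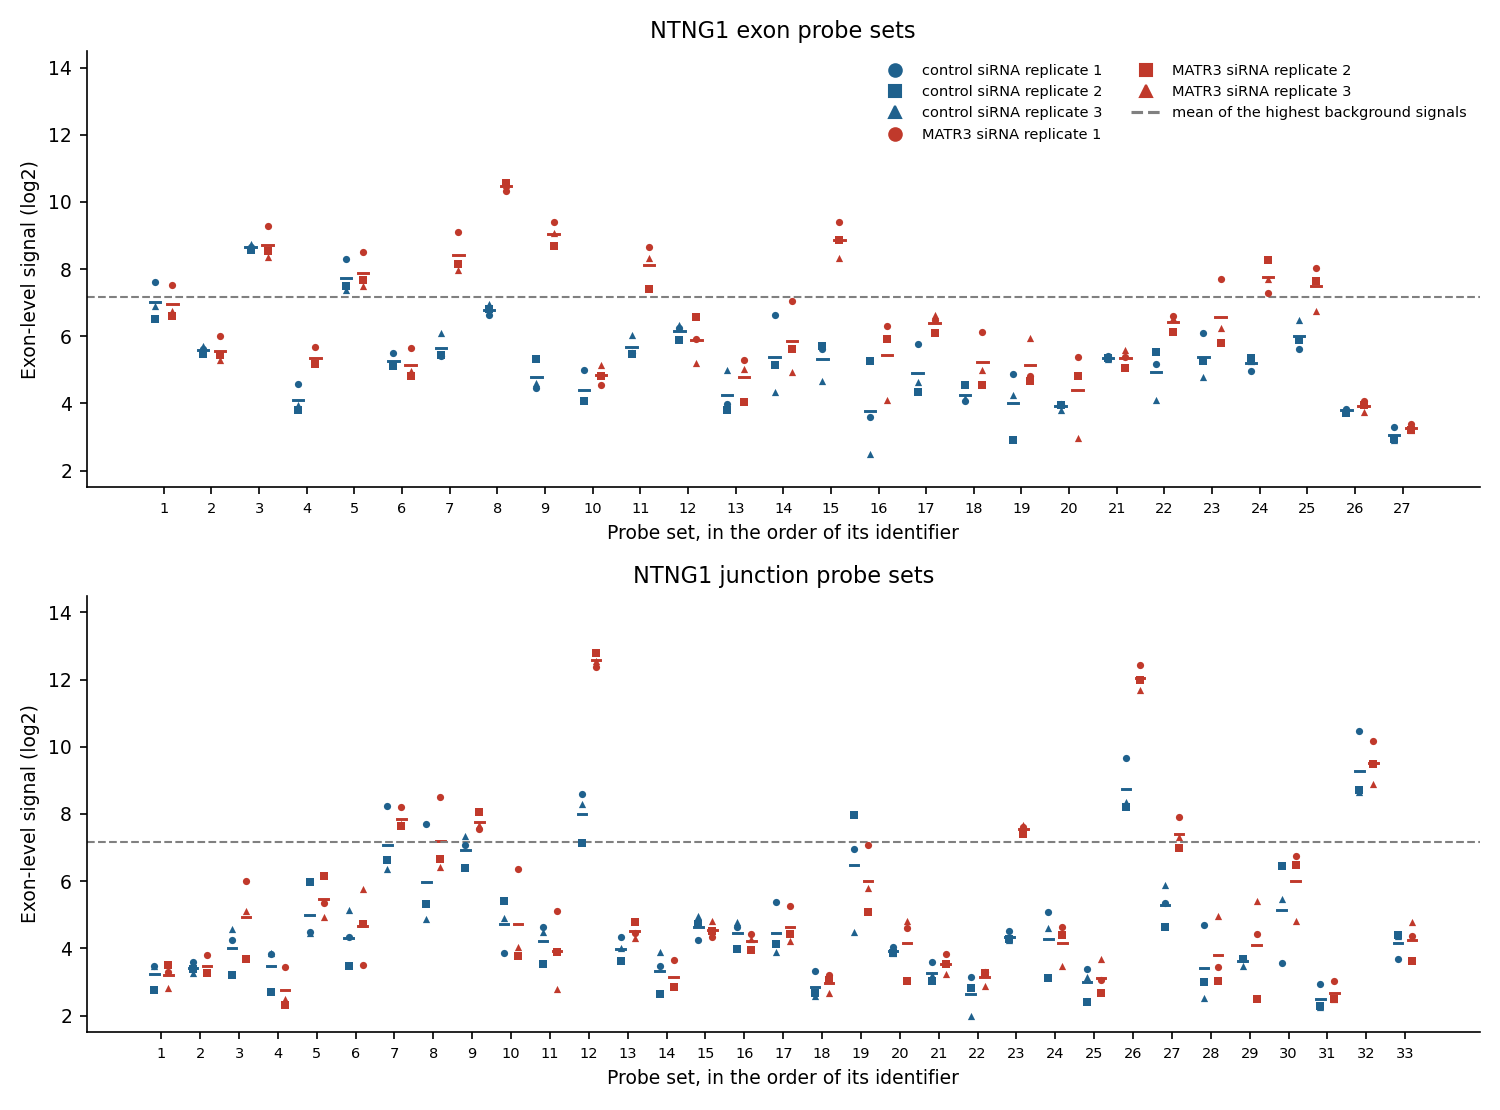
Exon-level log2 signal (vertical axis) of the 27 exon and 33 junction probe sets of NTNG1 in the order of their identifiers (horizontal axis), for each control siRNA and MATR3 siRNA sample, with marker shapes for replicate numbers, bars for group means and a dashed line at 7.17. Exon probe sets 7, 8, 9, 11 and 15 and junction probe sets 12 and 26 show MATR3 siRNA samples far above the controls, whereas exon probe sets 1 to 3, 5 and 6 and junction probe set 32 show little difference between the means.

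In the order of their identifiers, the first 6 exon probe sets of NTNG1 had a median difference of 0.02, and 1 of 6 was at least 2-fold higher. Places 7 to 15 had a median of 2.46 with 5 of 9 at least 2-fold higher, and places 16 to 27 had a median of 1.17 with 7 of 12. This division was made after the values were seen, and the identifiers were not placed on exons or transcripts here. The 33 junction probe sets had a median difference of 0.26, and 5 of 33 were at least 2-fold higher. The splicing index, which is a probe set's log2 signal minus the mean over the gene's probe sets at or above the median in the same sample, differed between the groups by -2.23 to 2.81 over 19 NTNG1 probe sets. None of the 19 passed in limma with no block after adjustment over 360570 probe sets. An unadjusted p under 0.05 was found for 14 of them and for 5.08% of all, but only 12 of the 19 had a control mean at or above the filter, so nothing is read from the 14.

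NTNG2, which encodes netrin-G2, the ligand of LRRC4, was not called at gene level. It had 5.35, 4.86 and 4.98 after MATR3 siRNA, against 5.34, 4.93 and 4.95 in the controls, with overlapping groups below background. The difference was -0.01 ± 0.05 (SD, n = 3 pairs), with adjusted p = 0.929 in limma with the array-set block. Of 31 NTNG2 probe sets, 2 were at least 2-fold higher, against 1.72% of all probe sets, and neither had separate groups. The junction JUC09005332.hg.1 had 9.88, 11.94 and 12.17 against 11.47, 10.79 and 8.66, a mean difference of 1.02 beside an SD of 2.55 over 3 pairs. Its pair 1 ran opposite to the other two. The junction JUC09005334.hg.1 had 8.04, 8.35 and 7.75 against 7.47, 7.17 and 6.65, with separate groups and a difference of 0.95 ± 0.33 (SD, n = 3 pairs). Its exon probe set PSR09009709.hg.1 had 9.50, 8.42 and 8.56 against 9.60, 8.90 and 9.06, lower in each pair, by 0.36 in the mean, with overlapping groups.

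LRRC4, the netrin-G2 receptor, had gene-level signals of 6.80, 6.10 and 6.27 after MATR3 siRNA, against 6.41, 6.06 and 6.12 in the controls. The groups overlapped and lay below background, with a difference of 0.19 ± 0.18 (SD, n = 3 pairs) and adjusted p = 0.239 in limma with the array-set block. Its exon probe set PSR07028494.hg.1 was above background in all samples, at 10.35, 10.44 and 10.14 against 9.54, 9.17 and 9.22. There the groups were separate, and the difference was 1.00 ± 0.24 (SD, n = 3 pairs). PSR07028497.hg.1 had 8.10, 7.77 and 7.97 against 7.34, 7.16 and 6.36, also with no overlap. The junction JUC07014062.hg.1 went the other way, at 8.37, 6.07 and 6.98 against 8.67, 8.00 and 7.67, with overlapping groups. Of the 10 LRRC4 probe sets at or above the median signal, 5 were higher and 5 lower. These 10 held all 3 of the 16 LRRC4 sets that were higher with no overlap, against 5.00% of all probe sets.

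LRRC4C, the netrin-G1 receptor, was below the filter on low values and was not in the fit over 15209 clusters. Fitted with no filter, in limma with no block, it had adjusted p = 1. Its signals were 4.56, 4.23 and 4.24 after MATR3 siRNA, against 4.59, 4.24 and 4.21 in the controls. In no pair did they differ by more than 0.03. Of its 31 probe sets, 2 were at or above the median signal, 0 were above background in either group and 0 differed 2-fold. The 2 sets, JUC11010454.hg.1 and JUC11010455.hg.1, differed by 0.14 ± 2.09 and -0.19 ± 1.06 (SD, n = 3 pairs), with overlapping groups. At gene level both NTNG1 and LRRC4C were below background in both groups. Among probe sets, 17 of NTNG1 and 0 of LRRC4C were above it in the MATR3 siRNA means, and 5 and 0 in the control means.

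LRRTM2, a postsynaptic protein that binds neurexins, had gene-level signals of 8.27, 7.49 and 7.49 after MATR3 siRNA, against 8.16, 7.34 and 7.50 in the controls. Replicate 1 was the highest in both groups, and the groups overlapped. The difference was 0.08 ± 0.08 (SD, n = 3 pairs), with adjusted p = 0.452 in limma with the array-set block. Of its 22 probe sets, the junction JUC05012886.hg.1 had 10.75, 11.80 and 11.61 after MATR3 siRNA, against 12.48, 12.58 and 13.17 in the controls. All 3 MATR3 siRNA samples were below all 3 controls, by 1.36 ± 0.51 (SD, n = 3 pairs) in the mean, and it was the 1 member probe set of 233 that was at least 2-fold lower, against 1.99% of all probe sets. Another junction, JUC05012888.hg.1, was 1.06 ± 0.98 (SD, n = 3 pairs) higher with no overlap, from signals far below background in both groups, at 3.63, 4.13 and 3.49 against 3.28, 1.95 and 2.84. The exon probe set with the highest difference at or above the median, PSR05025108.hg.1, was 0.75 ± 0.73 (SD, n = 3 pairs) higher, with overlapping groups. PSR05025097.hg.1 was slightly higher with no overlap, at 11.31, 11.14 and 11.26 against 11.11, 10.53 and 10.75. The junctions JUC05012890.hg.1 and JUC05012891.hg.1 held identical values in every sample and count as 1 measurement.

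**Figure D3:**
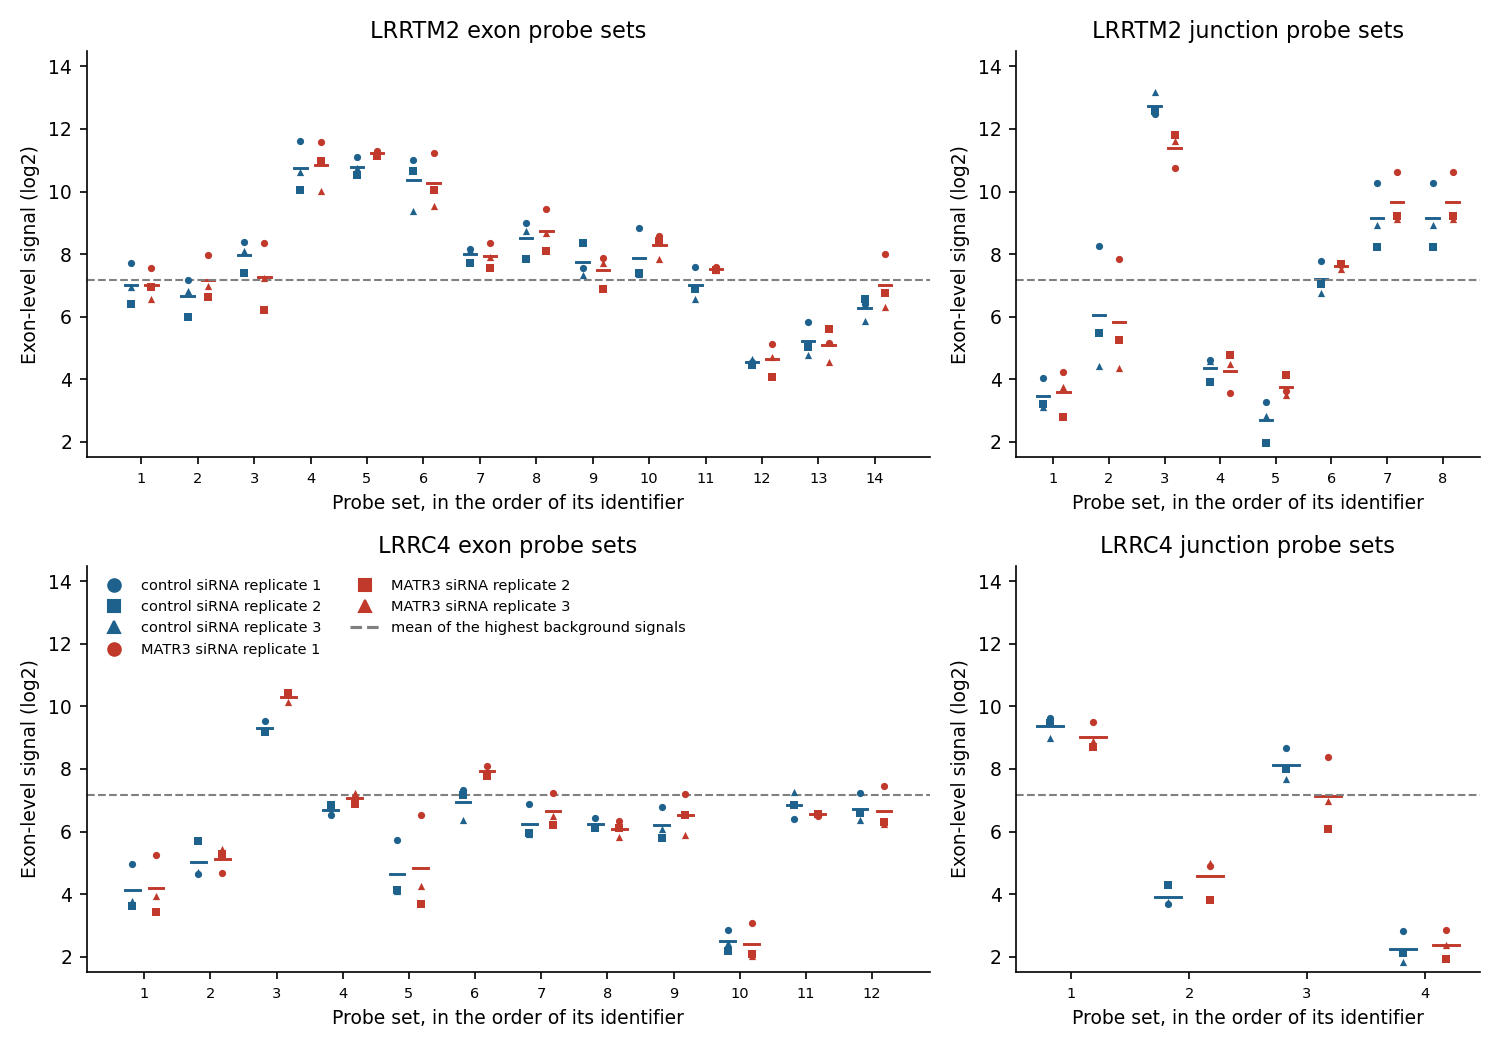
Exon-level log2 signal (vertical axis) of the exon and junction probe sets of LRRTM2 and LRRC4 in the order of their identifiers (horizontal axis), with colours for the 2 groups, marker shapes for replicate numbers, bars for group means and a dashed line at 7.17. LRRTM2 junction probe set 3 is the one with all MATR3 siRNA samples below all controls, and LRRC4 exon probe sets 3 and 6 are among the 3 LRRC4 sets with all MATR3 siRNA samples above all controls.

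FLRT3, a fibronectin and leucine-rich-repeat protein that binds latrophilins and UNC5 receptors, gave 7.10, 6.79 and 6.64 after MATR3 siRNA, against 6.98, 6.52 and 6.43 in the controls. The 2 groups overlapped, but each MATR3 siRNA sample was above the control of its own number. The difference was 0.20 ± 0.08 (SD, n = 3 pairs), with adjusted p = 0.151 in limma with the array-set block. It was 0.17 after quantile normalization and 0.12 after median centring, at adjusted p = 0.208 and 0.531 in limma with that block. Among its 16 probe sets the junction JUC20004741.hg.1 had 7.10, 7.52 and 7.69 against 6.40, 6.29 and 6.93, with separate groups and a mean difference of 0.90 ± 0.29 (SD, n = 3 pairs). PSR20009106.hg.1, an exon probe set, gave 7.71, 7.26 and 7.31 against 7.24, 6.31 and 6.39, with the lowest MATR3 siRNA sample just above the highest control. PSR20009101.hg.1, the lowest at or above the median, differed by -0.14 ± 0.40 (SD, n = 3 pairs) with overlapping groups.

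Over all 10 genes, 36 of 233 probe sets were at least 2-fold higher after MATR3 siRNA and 1 was 2-fold lower. The groups were separate in 26 of the 36 and in the 1 lower set, against 0.865% and 0.625% of all probe sets. With no bound on size, 38 were higher and 3 lower with no overlap, against 5.00% and 2.61%. The 3 lower sets were 1 each of LRRTM2, LINGO2 and SLITRK5. NTNG1, SLITRK6 and LINGO2 held 18, 7 and 6 of the 36. A probe set can pass a filter on its mean through the group where it is high, so the count was also made over sets with a control mean at or above the median: 18 of 93 were at least 2-fold higher, against 1.22% of all such sets, and 1 was 2-fold lower, against 3.01%. In that count NTNG1 had 4 of 12 sets at least 2-fold higher, SLITRK6 6 of 7 and LINGO2 6 of 17. None of the 97 member probe sets in the limma fit was called: the lowest adjusted p was 0.336 with no block, 0.405 with the replicate block and 0.189 with the array-set block, against a background of 0% called in each. In the fit with no block, 28 had an unadjusted p under 0.05, as had 3.68% of all fitted probe sets. Some of the 97 passed the filter through their MATR3 siRNA values alone, so nothing is read from the 28. The splicing index also gave 0 calls among 87 member probe sets in each fit. In limma with no block, 21 of the 87, among them the 14 of NTNG1, had an unadjusted p under 0.05, as had 5.08% of all. The 87 passed the same filter, so nothing is read from the 21. The background of the splicing index was 0% of 360570 probe sets called with no block and with the array set, and 0.000277% with the replicate block.

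**Figure D4:**
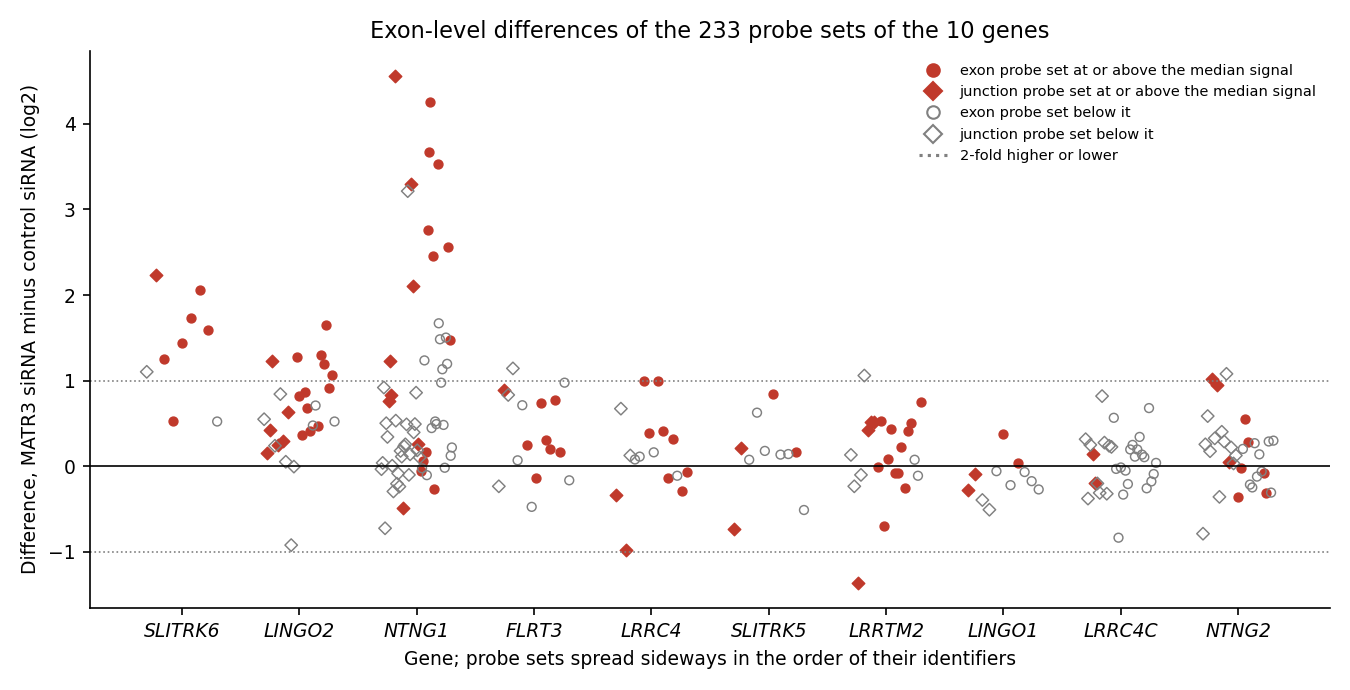
Log2 difference, MATR3 siRNA minus control siRNA (vertical axis), of the 233 probe sets of the 10 genes (horizontal axis), with circles for exon and diamonds for junction probe sets, filled where the mean over 6 samples is at or above the median, and dotted lines at a 2-fold difference. NTNG1 spans -0.72 to 4.56, all 9 SLITRK6 sets lie above 0, and 1 LRRTM2 junction set lies below the lower dotted line.

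None of the relatives of the 10 genes was called. The list of relatives holds the other SLITRK, LINGO, LRRTM, FLRT, LRFN, AMIGO, ELFN and netrin genes with LRRC4B. Of its 25 measured genes, 13 were fitted and 0 were called in any of the 3 limma fits, with 0, 1 and 3 at an unadjusted p under 0.05 with no block, the replicate block and the array-set block. Over all fitted clusters those shares were 0.631%, 20.4% and 23.8%. Their median difference was 0.11, beside 0.19 over the 10 genes and 0.06 over all clusters with 1 symbol. The 2 with the highest signals, LRFN1 and LRFN3, synaptic adhesion proteins of the SALM family, had means of 7.57 against 7.69 and 7.49 against 7.66. LINGO4, picked out after its values were seen, had its lowest control above its highest MATR3 siRNA sample and differed by -0.28 ± 0.21 (SD, n = 3 pairs), with adjusted p = 0.131 in limma with the array-set block. ELFN1 was the other relative with separate groups, at 0.14 ± 0.08 (SD, n = 3 pairs).

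None of the binding partners of these proteins was called either. Of 23 measured partners, which include receptor-type phosphatases, neurexins, latrophilins, UNC5 receptors and Nogo receptor components, 19 were fitted and 0 passed in those fits, with 0, 5 and 6 at an unadjusted p under 0.05, against those same shares of all clusters. Their median difference was 0.04, with a range of -0.13 to 0.27. ADGRL2, a latrophilin, had means of 13.78 after MATR3 siRNA and 13.77 after control siRNA, and UNC5B, a netrin receptor that FLRT3 also binds, 12.87 and 12.85. LRRTM2 lies within CTNNA1, an alpha-catenin gene, which differed by -0.13 ± 0.05 (SD, n = 3 pairs) with adjusted p = 0.195 in limma with the array-set block. FLRT3 lies within MACROD2, which was below the filter and differed by -0.06. LRRC4 lies within SND1, which had no cluster with 1 symbol and so has no value here.

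**Figure D5:**
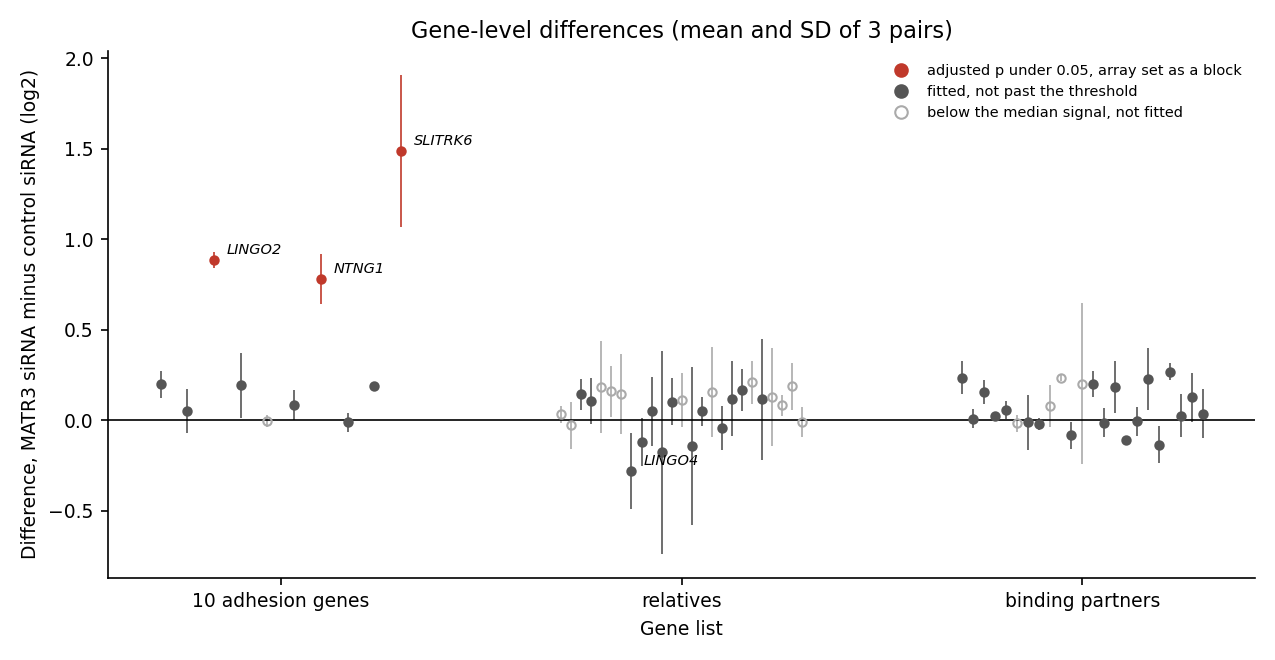
Gene-level log2 difference, MATR3 siRNA minus control siRNA (vertical axis, mean with SD of 3 pairs), of each measured gene in the 3 lists (horizontal axis), coloured where limma with the array-set block called it. SLITRK6, LINGO2 and NTNG1 are the called genes, and the relatives and partners lie between -0.28 and 0.27.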

How the data were processed

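Per the submitters' processing notes, the authors made the deposited log2 signals with Affymetrix Expression Console and RMA. Versions, annotation release and build are not given in the sources used here. Values were used as deposited. The 2995 features present in both tables held identical values, so the tables were read as the same arrays. The labels do not say that replicates were separate cultures, so p-values measure only the spread between these samples. Symbols came from the platform annotation, updated through a RefSeq gene table.

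Of 23781 clusters with 1 symbol, the 15209 with a mean at or above the median of all clusters (4.94) were fitted, and at exon level the 456623 probe sets at or above 6.00. Tests used lmFit and eBayes of limma 3.58.1 in R 4.3.3, two-sided, with a Benjamini-Hochberg threshold of 0.05, after a check on simulated data. The simulation held the array-set gap of these arrays and the same noise for every cluster. It therefore checks the code only, and says nothing on the calls. Figures used matplotlib 3.10.9. The splicing index needed 1 symbol and at least 5 such probe sets. Replicate numbers are shared by the groups. Deviations of same-numbered samples correlated at 0.752, 0.426 and 0.613, each over 0.1, and the numbers were therefore used as pairs. Both groups share the gap between replicate 1 and the other arrays, which raises these correlations with or without true pairs. Deviations of samples with different numbers were not compared, so this check cannot decide whether the numbers mark pairs. The SDs over pairs and the replicate block rest on that choice. Fits with a block for the replicate number or the array set, other filters and normalizations, array weights and leaving out samples were also run.

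The 10 genes and the lists of relatives, partners, hosts and markers were chosen with earlier results of these data known. By rule, the text names every member, called genes and the 2 list genes with the highest signals, and the highest and lowest probe set difference per member among those at or above the median. Other probe sets, LINGO4 and ELFN1 were picked after their values were seen. The number of arrays limits the precision.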

Additional observations from a re-analysis of the deposited data

How the results depend on the processing

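With no block, 0 members and 0 clusters were called. The replicate block gave 1 and 8, and the array set as a block 3 and 530, or 3 and 385 with quantile normalization and 3 and 205 with median centring. Array weights gave 3 and 1761. Over all 33782 clusters at or above the median, with and without symbols, the array set as a block gave 0 members and 1 cluster. Leaving out 1 sample gave 0 and 0 with no block, and 0 to 1 members and 0 to 21 clusters with the array-set block. Scaling shifted the median of all clusters by -0.05 and -0.08.

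Of 221 alternative gene-level differences, 193 kept direction and side of the threshold, 14 were newly past it and 14 reversed. LINGO1 reversed with quantile normalization (-0.000556) and median centring (-0.023), each also with the array set, and ranged from -0.033 to 0.16 when 1 sample was left out (-0.021 to 0.12 with the array set). LRRTM2 ranged from -0.18 to 0.33, LRRC4 from -0.012 to 0.34 and NTNG2 from -0.15 to 0.12 (-0.04 to 0.027 with the array set). SLITRK6, LINGO2, NTNG1, SLITRK5 and FLRT3 kept their direction in every alternative run. Of 220 exon-level differences, 15 reversed. With 1 sample left out, SLITRK6 PSR13008799.hg.1 ranged from -0.12 to 1.32, LINGO1 JUC15008970.hg.1 from -0.61 to 0.21, LINGO2 JUC09007093.hg.1 from -0.34 to 1.08, LRRC4C JUC11010454.hg.1 from -0.56 to 1.25, LRRC4C JUC11010455.hg.1 from -0.64 to 0.29, NTNG1 JUC01007682.hg.1 from -1.48 to 0.26 and FLRT3 PSR20009101.hg.1 from -0.51 to 0.10. Without replicate 1 of both groups, LINGO2 JUC09007093.hg.1 was -0.67. The count of 2-fold higher sets ranged from 16 to 22 for NTNG1, 6 to 8 for SLITRK6 and 3 to 10 for LINGO2. The cause of these shifts was not tested. The 75th percentile filter, which was above 6 of the 9 fitted members, gave values for SLITRK6, LINGO2 and LRRTM2, and averaging over clusters changed nothing, as each member had 1 cluster.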

Other observations

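By the rule of likeness, the clusters closest to SLITRK6 over the 6 samples, among 14285 candidates with 1 symbol, were LGR5 (Pearson r = 0.9953), MSI1 (r = 0.9934) and LUM (r = 0.9885), which were 0.71, 1.01 and 0.67 higher after MATR3 siRNA. In all, 32 candidates had r of at least 0.95 with SLITRK6. The clusters closest to NTNG2, the member with the lowest difference, were MESD (r = 0.9997), ZSCAN12 (r = 0.9996) and BNIP1 (r = 0.9987), and 6331 candidates had r of at least 0.95 with it. These are descriptions over samples that share the 2 groups and the gap between replicate 1 and the other arrays.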
